A study of Mus musculus with 21 samples.

Results

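The colony stimulating factors and their receptors were followed as 8 genes chosen by name among the 32285 genes of the count table. They are the ligands Csf1, Il34, Csf2 and Csf3 and the receptor genes Csf1r, Csf2ra, Csf2rb and Csf3r. For each of them the unique molecular identifiers (UMIs, 1 per captured mRNA molecule) were summed per library and per cell type and given per 1000000 UMIs of that sum (CPM). The study profiled single cells of melanoma that had been engrafted as MT-ret tumor fragments into mT/mG mice, whose own cells carry tdTomato throughout and hold no Cre, so the gate on unlabeled cells was meant for malignant melanoma (MM) cells. Primary tumors, the lung metastases that grew after resection and unchallenged lungs, which never received a tumor, were dissociated, frozen, thawed and sorted. The fragments were placed under the skin, and no unchallenged skin was sampled. Between primary tumors and the lung samples, organ and tumor therefore cannot be told apart.

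All hosts were mT/mG mice, and the fragments were engrafted at 8 to 10 weeks of age. The tumor microenvironment (TME) libraries and the unchallenged lungs hold tdTomato+ cells, sorted either as all living cells or after depletion of CD45+ leukocytes, and the labels do not give the gate of each sample, so shares of leukocytes between libraries are not compared. The MM libraries were sorted as tdTomato- cells. By the markers used here 2 libraries departed most from their gates: 269 of 638 cells in metastasis MM replicate 4 were named MM, beside 86 B cells and 63 neutrophils, and metastasis TME replicate 5 held 2015 MM cells among 5166. GEO's tissue label reads lung for every sample, also those of the primary tumor. The files held 24 library names, of which 5 repeated the cells and counts of another library and were counted once. The labels join 2 metastasis and 3 primary tumor libraries, 1 per mouse, as replicates 1-3, and these were summed into 1 library each. This left 100359 cells in 16 libraries, namely 4 of metastasis TME, 4 of primary tumor TME, 4 of unchallenged lung, 2 of metastasis MM and 2 of primary tumor MM. Library names in the deposited cell annotation give a run, 1 to 3, without saying what a run stands for. Run 1 held replicates 1-3 and unchallenged lung replicate 1, run 2 held replicate 4 and run 3 held replicates 5 and 6. The annotation also names the mouse of each library. In it, 3 of the 4 MM libraries carry other replicate numbers than in the labels and were matched to them through the mouse of the TME library, and unchallenged lung replicate 1 carries the number 2 and was matched by elimination. The metastases and primary tumors of replicates 5 and 6 share their mice, the pools of replicates 1-3 share mice 2 and 3 while mouse 1 gave primary tumor only, those of replicate 4 came from different mice, and the unchallenged lungs came from 4 other mice.

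Colony stimulating factors are secreted proteins that keep myeloid cells alive and drive their growth. CSF1 and IL34 share the receptor CSF1R, a tyrosine kinase of monocytes and macrophages. CSF2 (GM-CSF) binds an alpha chain, encoded by Csf2ra, which pairs with the common beta chain encoded by Csf2rb and shared with the receptors for IL3 and IL5, and in the lung it is needed for alveolar macrophages. CSF3 (G-CSF) acts through CSF3R and controls the output of neutrophils.

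The genes lie apart in the GRCm38 annotation (GENCODE M21): Csf1 at chr3:107741048-107760469 on the minus strand, Csf2 at chr11:54247271-54249667 on the minus strand, Csf3 at chr11:98701263-98703629 on the plus strand, Il34 at chr8:110741829-110805924 on the minus strand, Csf2ra at chr19:61223957-61228429 on the minus strand, Csf3r at chr4:126024550-126044440 on the plus strand and Csf2rb at chr15:78325752-78353847 on the plus strand. Csf2rb2, a near-identical copy of Csf2rb, lies beside it at chr15:78282507-78305721 on the minus strand, so reads may be split between both copies and their single values are uncertain. The 250 bases before the RefSeq start of Csf2ra are shown as an example of a receptor that sat highest in myeloid cells. Spi1, which encodes the myeloid transcription factor PU.1, was among the genes whose levels over cell types were most like those of Csf2ra and Csf2rb. They come from RefSeq on GRCm38.p6, at chr19:61228419-61228668 on the minus strand, and the last 11 of them lie inside the gene as GENCODE draws it. Capitals mark GAGGAA, the core of a PU.1 site, which was searched on both strands.
Csf2ra: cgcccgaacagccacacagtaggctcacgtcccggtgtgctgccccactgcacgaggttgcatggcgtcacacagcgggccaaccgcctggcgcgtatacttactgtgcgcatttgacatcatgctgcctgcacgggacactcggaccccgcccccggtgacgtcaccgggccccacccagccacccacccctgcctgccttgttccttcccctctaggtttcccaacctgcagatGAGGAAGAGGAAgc
The stretch held 2 matches, of which 1 lay wholly inside the GENCODE gene, and 23.3% of 32851 RefSeq promoters held at least 1 match in the same 250 bases. The 250 bases before the RefSeq start of Csf3r held 1 match, also inside the GENCODE gene, and is not shown because 109 of its bases lie there. A match describes letters only.

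Cell types were rebuilt from marker genes with the 8 genes left out of the clustering, since the files name none, so each name below stands for cells like that type, and a difference from the study may come from the rebuilt names. Of the cells, 89107 received 1 of 25 names and 11252 stayed unnamed. Libraries held between 1777036 and 60339415 UMIs. Unchallenged lung replicate 6 stood apart. Its respiratory ciliated cells (RCC) carried Csf3r at 253 CPM, against 0 to 18.1 CPM in the RCC of the other 5 libraries, and the part of free RNA in the receptor values of replicate 6 outside myeloid cells was not tested.

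Csf1r was highest in monocytes and macrophages. The gene lies at chr18:61100598-61132149 on the plus strand. Nonclassical monocytes, the patrolling monocytes of the vessel wall, had the highest level, with a median of 785 CPM (672 to 888 over 9 libraries). C1q macrophages, named for the complement genes C1qa, C1qb and C1qc, had a median of 623 CPM (476 to 876, 9 libraries) and classical monocytes 486 CPM (403 to 569, 7 libraries). The ranges of these neighbours overlapped. Alveolar macrophages were clearly lower, with 141 CPM in metastasis TME replicates 1-3 and 103, 121, 119 and 149 CPM in unchallenged lung replicates 1, 4, 5 and 6, so that they did not overlap with C1q macrophages. Neutrophils spanned 66.9 to 137 CPM over 10 libraries. MM cells had between 0.134 and 0.727 CPM in 5 libraries.

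Inside single libraries, Csf1r was higher in macrophages (alveolar and C1q together) than in neutrophils in 10 of 10 libraries. The mean log2 ratio of CPM + 10 was 1.89 ± 0.80 (SD), and the two-sided exact sign-flip permutation test over libraries gave p = 0.00195, adjusted p = 0.0137 over the 14 pairs of cell types tested. This test, here and below, takes libraries as independent, although the metastasis and primary tumor libraries of replicates 1-3, 5 and 6 share mice. C1q macrophages exceeded alveolar macrophages in 5 of 5 libraries, by 2.35 ± 0.42 on the log2 scale, and nonclassical exceeded classical monocytes in 7 of 7, by 0.65 ± 0.15. Neither comparison passed after adjustment. The exact permutation test gave p = 0.0625 for the first, the smallest value that 5 libraries allow, with adjusted p = 0.125, and p = 0.0156 for the second, with adjusted p = 0.0729.

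Csf2ra was nearly even over the myeloid cells. Mean levels were 300 ± 68.3 CPM (SD, n = 9) in C1q macrophages, 298 ± 38.8 (n = 5) in alveolar macrophages, 294 ± 30.8 (n = 9) in nonclassical monocytes, 289 ± 93.1 (n = 10) in neutrophils, 285 ± 32.9 (n = 7) in classical monocytes and 274 ± 56.1 (n = 3) in conventional dendritic cells of type 1 (cDC1). These 6 types were within 1 SD of each other. The log2 ratio of macrophages over neutrophils was 0.08 ± 0.57 over 10 libraries, and that of alveolar over C1q macrophages 0.02 ± 0.24 over 5 libraries (two-sided exact permutation p = 0.738 and 0.938). Below this plateau the next types were B cells, with a mean of 65.3 CPM, and RCC, with 62.4 CPM.

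Csf2ra was also counted in MM cells. Metastasis MM replicates 4 and 5 had 10.2 and 27.9 CPM, primary tumor MM replicates 4 and 5 had 21.2 and 28.4 CPM, and the MM cells among the TME cells of metastasis replicate 5 had 26.4 CPM. Csf2rb, whose product the alpha chain needs to signal, lay between 0.0352 and 3.64 CPM in the same cells. Csf1r lay between 0.134 and 0.727 CPM there. RCC also had Csf2ra, at 35.3 to 142 CPM over 6 libraries. After thinning to 1000 UMIs per cell, 2.27% of MM cells had a UMI of Csf2ra (7.64% unthinned, median depth 1891 UMIs per cell). In metastasis MM replicate 4, the MM library with enough B cells to compare, the thinned shares were 1.53% of MM cells (exact binomial 95% interval 0.418 to 3.86) and 2.47% of B cells (0.300 to 8.64), with 4.83% and 2.33% unthinned and median depths of 4386 and 1521 UMIs. These intervals overlapped, so the share in MM cells of that library could not be told from that in B cells. B cells were the next type below the myeloid plateau, so they cannot stand for cells without the gene. The part of free RNA in the MM libraries was not tested.

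Csf2rb, the common beta chain, split the same myeloid cells. Neutrophils had 196 to 509 CPM over 10 libraries (median 297) and alveolar macrophages 310, 342, 345, 287 and 251 CPM in metastasis TME replicates 1-3 and unchallenged lung replicates 1, 4, 5 and 6. Classical monocytes followed with a mean of 160 ± 24.4 CPM (SD, n = 7), cDC1 with 151 ± 34.2 (n = 3), nonclassical monocytes with 133 ± 22.5 (n = 9) and C1q macrophages with 111 ± 23.6 (n = 9). Alveolar macrophages did not overlap with classical monocytes, while the ranges of all lower neighbours among these types overlapped. Tip-like endothelial cells came next with 5.21 to 89.6 CPM, and their levels are given by tissue further on. Their name rests on 7 markers, among them Esm1, Angpt2 and Apln, not all of which were raised.

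Alveolar macrophages had more Csf2rb than C1q macrophages in 5 of 5 libraries, by 1.34 ± 0.37 on the log2 scale (two-sided exact permutation p = 0.0625, the smallest possible, adjusted p = 0.125). Macrophages against neutrophils gave a mean of -0.72 ± 0.91 (exact permutation p = 0.0391, adjusted p = 0.125). That mean joined unlike libraries. Macrophages were below neutrophils in the 6 tumor libraries, by 0.54 to 2.16 on the log2 scale, and the 4 unchallenged lungs lay between -0.06 and 0.39.

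Csf3r marked neutrophils. Their level was 1044 CPM at the lowest, 1957 in metastasis TME replicates 1-3 and in the metastasis MM library of replicate 4, and 3310 CPM at the highest, in unchallenged lung replicate 6. Classical and nonclassical monocytes had means of 211 and 104 CPM. Inside libraries, neutrophils exceeded macrophages in 10 of 10, by 5.41 ± 0.96 on the log2 scale (two-sided exact permutation p = 0.00195, adjusted p = 0.0137). In cells thinned to 1000 UMIs, 87.4% of neutrophils held a Csf3r UMI (exact binomial 95% interval 86.0 to 88.8, 95.5% unthinned), and 19.2% of RCC did (18.3 to 20.1, 30.0% unthinned), at median depths of 2392.5 and 1736 UMIs. The RCC value came from unchallenged lung replicate 6, where it was 21.4%, while the other 4 libraries with at least 20 thinned RCC gave 0 to 1.79%. Intervals and floors cover counting error only.

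**Figure D1:**
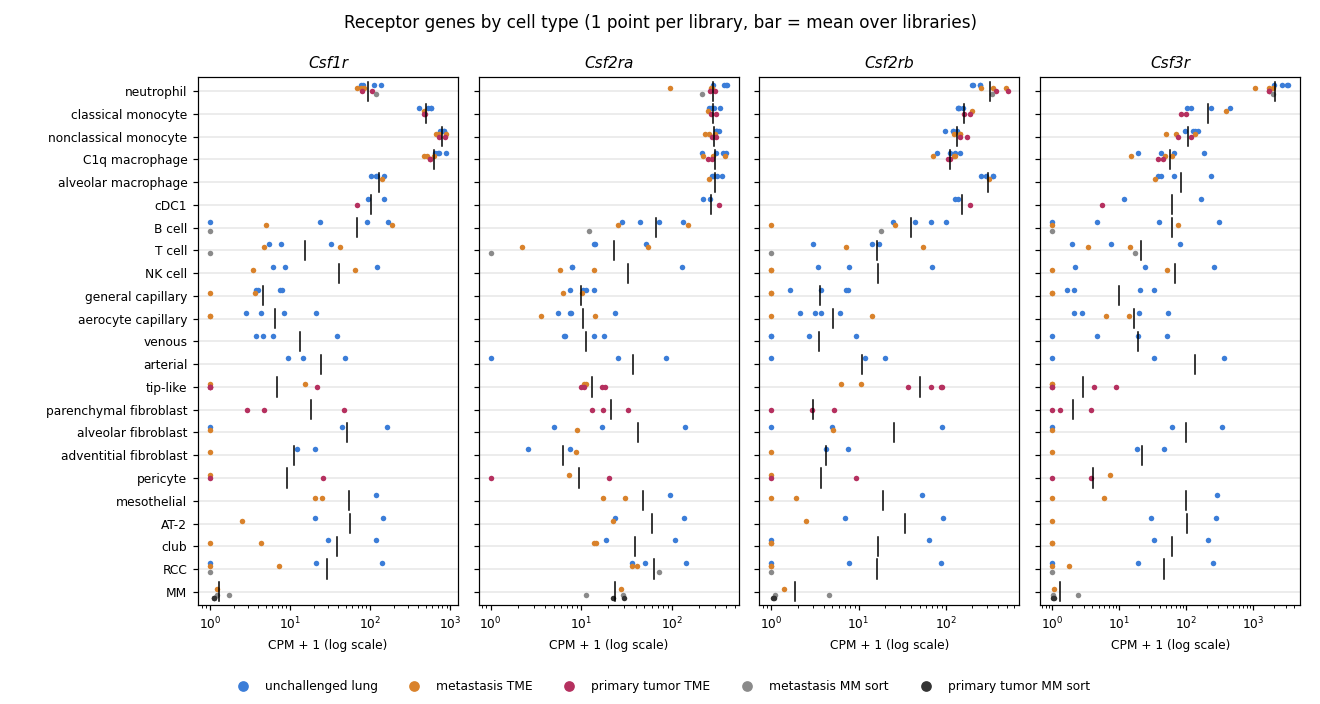
Levels of Csf1r, Csf2ra, Csf2rb and Csf3r plotted as CPM + 1 of summed UMIs on a log axis by cell type, with 1 point for each library of at least 20 cells colored by group and a bar at the mean over libraries. Nonclassical monocytes stood highest for Csf1r (672 to 888 CPM) and neutrophils for Csf3r (1044 to 3310 CPM), while 6 myeloid types had like means of Csf2ra.

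Among the ligands, Csf1 was counted in neutrophils and in cells of the vessel wall and stroma. Neutrophils had 316, 53.5 and 309 CPM in metastasis TME replicates 1-3, 5 and 6, and 653 and 257 CPM in primary tumor TME replicates 1-3 and 4. In unchallenged lung replicates 1, 4, 5 and 6 they had 197, 351, 148 and 124 CPM. The tissues overlapped and the spread was wide. Of the neutrophils thinned to 1000 UMIs, 13.9% (12.4 to 15.4) held a Csf1 UMI, against 1.59% (1.03 to 2.33) of B cells, with 24.7% and 2.11% unthinned and median depths of 2392.5 and 1591 UMIs. Macrophages, which express the receptor for CSF1, had 0 to 8.28 CPM of Csf1.

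After neutrophils, Csf1 was highest in adventitial fibroblasts (mean 129 ± 36.6 CPM, SD, n = 3) and general capillary endothelium (124 ± 30.6, n = 6). Arterial cells had a mean of 96.0 CPM, mesothelial cells 91.2, parenchymal fibroblasts 78.6 and venous cells 66.6 CPM. These neighbours did not differ beyond their spread. Tip-like endothelium was low, with 14.5 to 39.6 CPM over 6 libraries, and did not overlap with general capillary cells, with 84.6 to 173 CPM. Fibroblasts were above endothelium in 5 of 7 libraries (mean log2 ratio 0.70 ± 0.96, two-sided exact permutation p = 0.109) and above macrophages in 5 of 5 (2.56 ± 0.66, exact permutation p = 0.0625, the smallest possible).

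Il34, the second ligand of CSF1R, was counted in stromal cells on 360 UMIs in all. Pericytes, the contractile cells around capillaries, had 95.4 CPM in metastasis TME replicate 5, and 105 and 30.3 CPM in primary tumor TME replicates 4 and 6. Mesothelial cells, which line the lung surface, had 48.9 and 24.3 CPM in metastasis TME replicates 5 and 6. They were at 0 in unchallenged lung replicate 6, which allows up to 31.8 CPM. Wt1, Lgals7, Cxadr and Clu were among the leading genes of this cluster. The study lists these genes in its signature of metastasis cancer-associated fibroblasts. Whether both names stand for the same cells was not tested. Parenchymal fibroblasts of the primary tumor, named for Col15a1 and Fbn2, had 15.5, 14.7 and 14.5 CPM. Alveolar type 2 (AT-2) cells, which make surfactant, had 19.7 CPM in metastasis TME replicate 5 and 5.22 and 4.70 CPM in unchallenged lung replicates 5 and 6. Neutrophils, monocytes and macrophages stayed at or below 2.22 CPM. In pericytes thinned to 1000 UMIs, 6.06% (2.65 to 11.6) of cells held an Il34 UMI, against 0 of 1577 B cells, which allows a share of up to 0.19% (29.6% and 0.057% unthinned, median depths of 4854 and 1591 UMIs).

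Csf2 and Csf3 were rare, with 46 and 99 UMIs in all cells together. Csf2 was highest in AT-2 cells, with 3.03 CPM in metastasis TME replicate 5 and 8.21 and 1.93 CPM in unchallenged lung replicates 5 and 6, which rest on 2, 11 and 7 UMIs. T cells, a known source of GM-CSF, had at most 3 UMIs in any library (3.71 CPM). Macrophages held none in 10 libraries, which allows up to 0.12 CPM, and neutrophils held none either. AT-2 cells were above macrophages in 3 of 3 libraries (two-sided exact permutation p = 0.25, the smallest possible).

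Csf3 came mostly from 1 library. Tip-like endothelium of primary tumor TME replicate 4 had 27 UMIs (43.1 CPM), and that of replicates 5 and 6 had 1 UMI each (2.27 and 1.09 CPM). Parenchymal fibroblasts of primary tumor TME replicate 6 had 13 UMIs (4.10 CPM), mesothelial cells of metastasis TME replicate 5 had 7 (6.45 CPM) and neutrophils of primary tumor TME replicate 4 had 5 (8.63 CPM). In primary tumor TME replicate 4 a further 20 UMIs (9.97 CPM) lay in 263 cells of an unnamed leukocyte cluster led by Arg1, Spp1, Thbs1, Pdpn and Mmp12, with 5 of the 10 melanoma markers, 3 of the 9 of C1q macrophages and 3 of the 8 of classical monocytes raised. No cell named as a macrophage held a Csf3 UMI.

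**Figure D2:**
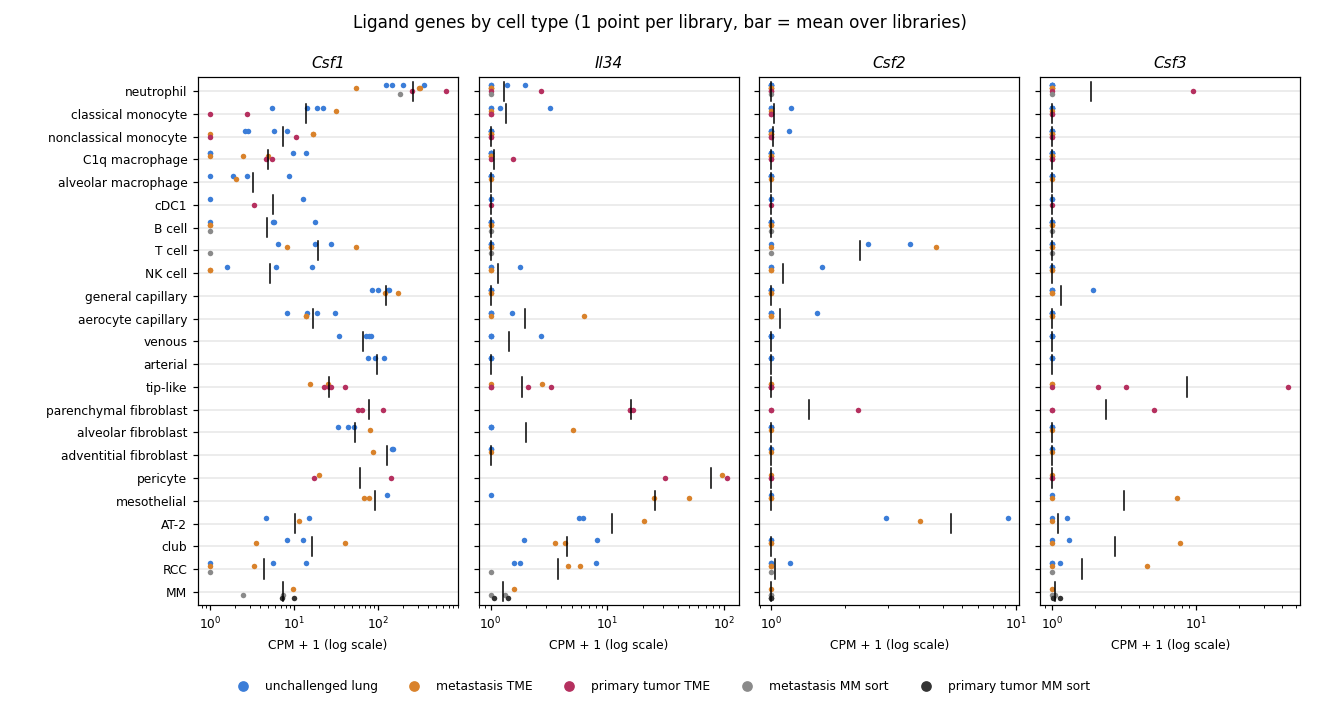
Levels of Csf1, Il34, Csf2 and Csf3 plotted as CPM + 1 of summed UMIs on a log axis by cell type, with 1 point for each library of at least 20 cells colored by group and a bar at the mean over libraries. Neutrophils led for Csf1 (53.5 to 653 CPM) and pericytes for Il34 (30.3 to 105 CPM), and Csf2 stayed at or below 8.21 CPM.

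**Figure D3:**
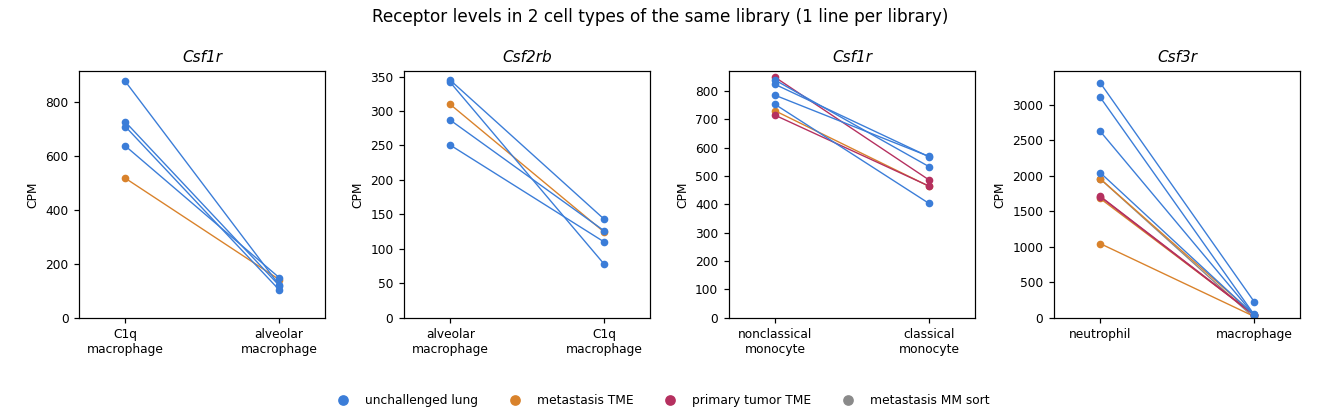
CPM of Csf1r, Csf2rb and Csf3r in 2 cell types of the same library for 4 of the 14 pairs tested, with 1 line per library colored by group. Each line falls from the first to the second type, in 5 of 5 libraries for both pairs of macrophage types, 7 of 7 for the monocytes and 10 of 10 for Csf3r in neutrophils and macrophages.

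The 3 tissues were then compared within 8 cell types on the summed raw UMIs with edgeR's quasi-likelihood test, adjusted after Benjamini-Hochberg over all genes tested, and 16 comparisons had at least 2 libraries on each side. Over them 63 tests of a member were possible and 5 passed at an adjusted p of 0.05, in 4 comparisons. A gene passed into a test only with enough UMIs in at least as many libraries as the smallest group held. Genes tested through the group in which they were high therefore had a chance to differ that the others lacked. Among the calls below, this holds for Csf2rb and Csf2rb2 in endothelium, for Csf2rb2 in neutrophils and for Il34 and Csf3r in fibroblasts. For these calls the share of all genes that passed is not an even background.

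Csf2rb rose in the endothelium of primary tumors. It had 69.5, 64.2, 35.7 and 86.5 CPM in primary tumor TME replicates 1-3, 4, 5 and 6. It was at 0, 0, 3.85 and 8.11 CPM in metastasis TME and at 1.77, 0.943, 4.16 and 7.65 CPM in unchallenged lung replicates 1, 4, 5 and 6. All 4 primary tumor libraries lay above all 8 lung libraries. The log2 fold change was 4.56 ± 0.54 (SE, adjusted p = 5.09e-05) against unchallenged lung, where 1 of 2 members tested passed and 22.2% of all genes did (11.6% higher and 10.6% lower), and -4.27 ± 0.68 (adjusted p = 0.00182) for metastasis against primary tumor, where 1 of 2 passed and 7.47% of all genes did (4.25% higher and 3.22% lower). Metastasis against unchallenged lung gave no call among 2 members (0 also at an unadjusted p below 0.05 and by DESeq2), with 1.98% of all genes called (1.79% higher and 0.197% lower).

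The neighbouring copy Csf2rb2 went the same way, with 28.9, 26.2, 25.2 and 56.9 CPM in the primary tumor endothelium, 0 to 3.21 CPM in metastases and 0 to 1.27 CPM in unchallenged lungs. Its log2 fold changes were 5.99 ± 0.61 (adjusted p = 1.64e-05) against unchallenged lung and -4.04 ± 0.69 (adjusted p = 0.00274) for metastasis against primary tumor. Csf2ra, the alpha chain, lay under the filter and was not tested. It had 8.40 to 20.4 CPM in primary tumors, 3.62 to 8.98 in metastases and 5.97 to 24.9 in unchallenged lungs, ranges that overlapped.

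The vessels themselves differed between the tissues. Tip-like cells made up 65.7 to 97.0% of the endothelial cells of primary tumors, 0 to 0.582% in unchallenged lungs, and in metastasis TME 62.7 and 50.0% in replicates 5 and 6 and 4.05 and 3.81% in replicates 1-3 and 4. Within tip-like cells, Csf2rb had 87.1, 67.1, 36.3 and 89.6 CPM in primary tumors and 5.21 and 9.67 CPM in metastasis TME replicates 5 and 6 (log2 fold change -3.42, edgeR adjusted p = 0.00108), a comparison chosen after seeing the data. The name joins 2 clusters. The first held 98.7 and 85.4% of the tip-like cells of these metastases and 1.52 to 34.8% of those of primary tumors. The other held the rest. Of the 7 tip-like markers, 5 were raised in the first and 4 in the other. In the other, 7 of the 10 stromal and 4 of the 8 venous markers were raised too. The 10 melanoma markers summed to 8547 and 1702 CPM in tip-like cells of metastasis TME replicates 5 and 6 and to 224 to 1326 CPM in those of primary tumors. The part of both in the result was not tested. Leukocyte markers overlapped between the tissues. The summed level of the 7 markers was 75.6 to 401 CPM in primary tumor endothelium, 82.7 to 270 in metastases and 109 to 729 in unchallenged lungs. Of the 7 markers, 1 to 7 were detected in a primary tumor library. The part of leukocyte RNA in the Csf2rb levels was not tested.

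In endothelial cells thinned to 1000 UMIs, 5.88 to 8.42% of those of primary tumor libraries held a Csf2rb UMI (18.1 to 30.2% unthinned), against 0 to 1.25% in the other 8 libraries (0 to 2.44% unthinned). Median depths were 4932 to 7505.5 UMIs per cell in primary tumor endothelium and 1693 to 5311 in the others. Of the fibroblasts in primary tumor TME replicates 4, 5 and 6, cells of the same libraries, 0.752, 0 and 0.491% held one (2.26, 0 and 0.803% unthinned), at median depths of 4367, 5320.5 and 5034 UMIs.

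Csf1 in endothelium passed in no comparison. It was even in unchallenged lungs, at 71.6, 70.2, 83.4 and 66.0 CPM, and lower in primary tumors, at 52.1, 26.2, 23.1 and 22.1 CPM, with no overlap between both groups (log2 fold change -1.26 ± 0.52, adjusted p = 0.0974). Metastases lay at both ends. Replicates 1-3 and 4 had 92.2 and 152 CPM, above the lungs, and their endothelium was 79.7 and 68.6% general capillary cells. Replicates 5 and 6 had 23.1 and 16.2 CPM, within and below the range of primary tumors, and no cell in them was named general capillary. The part of this makeup in the levels was not tested.

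**Figure D4:**
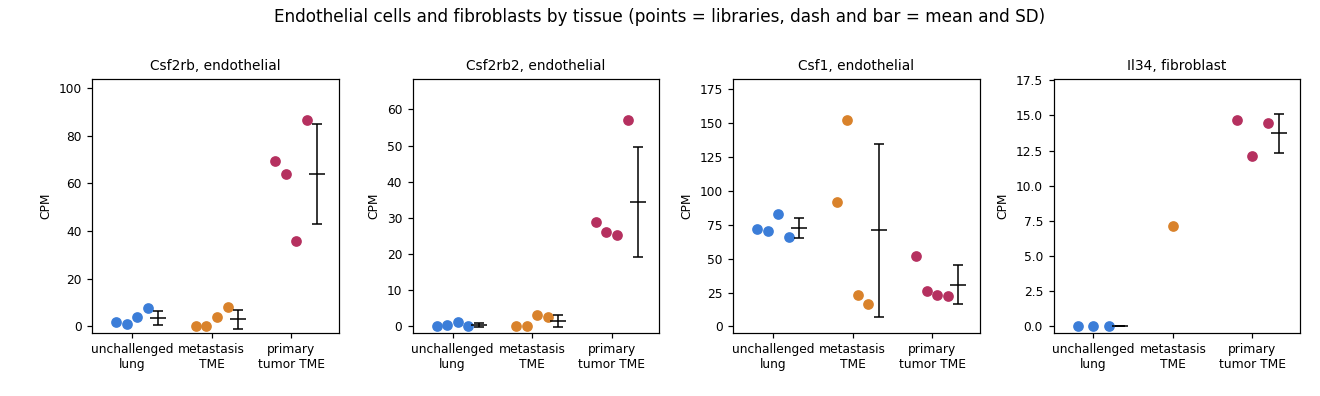
Levels of Csf2rb, Csf2rb2 and Csf1 in endothelial cells and of Il34 in fibroblasts, in CPM of summed UMIs, with 1 point per library by tissue and the mean and SD beside groups of at least 2 libraries. Csf2rb was 35.7 to 86.5 CPM in the 4 primary tumor libraries and at most 8.11 CPM in the other 8.

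In fibroblasts, 2 of 6 members tested differed between primary tumor and unchallenged lung, where 12.7% of all genes did (6.22% higher and 6.5% lower). Il34 was higher in primary tumors, at 14.6, 12.1 and 14.4 CPM in replicates 4, 5 and 6, and was at 0 in unchallenged lung replicates 4, 5 and 6 (edgeR adjusted p = 0.0174). Pooled over the group, this was at least 11.95-fold higher than the 3 UMIs that a count of 0 allows. The only metastasis library with enough fibroblasts had 7.14 CPM. It was the smallest group of this fit, so enough UMIs in 1 library let a gene into the test. Il34 entered through the primary tumors, since the unchallenged lungs held none. The primary tumor fibroblasts were 89.5 to 99.5% parenchymal, and those of unchallenged lungs were alveolar and adventitial. The call was lost within run 3 (adjusted p = 0.088) and without any 1 of the 3 primary tumor libraries (adjusted p 0.0677 to 0.115), and the gene was not tested without metastasis TME replicate 5, which left it under the filter.

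Csf3r went the other way in fibroblasts, with 2.66, 1.52 and 0.314 CPM in primary tumors and 0, 29.7 and 305 CPM in unchallenged lung replicates 4, 5 and 6 (log2 fold change -6.69 ± 1.67, adjusted p = 0.037). The groups overlapped. The call was lost without unchallenged lung replicate 6 (adjusted p = 0.0866) and without any 1 primary tumor library (adjusted p 0.1 to 0.171). It was also lost among the libraries of run 3 (adjusted p = 0.0619). The 7 leukocyte markers summed to 407, 184 and 4017 CPM in the fibroblasts of these unchallenged lungs and to 391, 18.2 and 4.08 CPM in primary tumors. Their part in the result was not tested.

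In macrophages, 1 of 4 members tested differed between primary tumor and unchallenged lung, where 16.3% of all genes did (7.09% higher and 9.25% lower). Csf2rb fell, with 106 and 111 CPM in primary tumor TME replicates 1-3 and 4 against 299, 231, 260 and 239 CPM in unchallenged lung replicates 1, 4, 5 and 6 (log2 fold change -1.22 ± 0.31, adjusted p = 0.0178). The groups did not overlap. Alveolar macrophages were 37.9 to 91.1% of the macrophages of unchallenged lungs and 0 and 0.0554% in primary tumor TME replicates 1-3 and 4. Within C1q macrophages alone, Csf2rb had 106 and 111 CPM in primary tumors and 77.7, 143, 126 and 110 CPM in unchallenged lungs, a log2 fold change of -0.05 ± 0.27 (adjusted p = 0.932). The call was also lost without either primary tumor library (adjusted p 0.158 and 0.174) and with the replicate number as a block (adjusted p = 0.0523).

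No member passed in the other macrophage comparisons by edgeR, at an unadjusted p below 0.05 or by DESeq2. These were metastasis against primary tumor and against unchallenged lung, each on 4 members, where 1.85% (1.59% higher and 0.257% lower) and 0.948% (0.859% higher and 0.0889% lower) of all genes passed. In C1q macrophages 0 of 4 members passed in all 3 comparisons, also unadjusted and by DESeq2, and 0.11% of all genes passed for metastasis against primary tumor (0.0734% higher and 0.0367% lower), 3.17% for metastasis against unchallenged lung (2.06% higher and 1.12% lower) and 5.28% for primary tumor against unchallenged lung (2.61% higher and 2.68% lower). C1q macrophages had 517, 476 and 623 CPM of Csf1r in metastases, 550 and 558 in primary tumors and 709, 876, 726 and 637 in unchallenged lungs (log2 fold change -0.40 ± 0.28 for primary tumor against unchallenged lung, adjusted p = 0.41). The lungs lay above the tumors in each library, within an error that does not separate them.

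In neutrophils no member passed. Csf2rb had 346, 254 and 489 CPM in metastasis TME replicates 1-3, 5 and 6, 509 and 378 CPM in primary tumors and 242, 203, 196 and 248 CPM in unchallenged lungs. Every tumor library lay above every lung. The log2 fold changes against unchallenged lung were 1.03 ± 0.30 for primary tumors (adjusted p = 0.0506) and 0.76 ± 0.27 for metastases (adjusted p = 0.0671). Csf3r lay the other way, at 1957, 1044 and 1680 CPM in metastases and 1711 and 1704 in primary tumors against 2044, 2627, 3106 and 3310 in unchallenged lungs (log2 fold change -0.83 ± 0.28, adjusted p = 0.0586, and -0.65 ± 0.32, adjusted p = 0.22).

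By the count, 0 of 5 members passed for metastasis against unchallenged lung in neutrophils, where 14.9% of all genes did (10.3% higher and 4.65% lower), with 3 members at an unadjusted p below 0.05 and 1 by DESeq2. For primary tumor against unchallenged lung the count was 0 of 5, with 2 unadjusted and 1 by DESeq2, and 7.26% of all genes (5.79% higher and 1.47% lower). For metastasis against primary tumor it was 0 of 5, also unadjusted and by DESeq2, and 0.228% of all genes, all of them lower. The neutrophils of unchallenged lungs fell into 1 cluster (96.4 to 99.9% of cells) and those of tumors mostly into another (85.3 to 100%), except metastasis TME replicates 1-3, with 59.0% in the first and 41.0% in the other. The 10 melanoma markers summed to 730 to 9062 CPM in the neutrophils of the 5 tumor TME libraries and to 23.6 to 30.3 CPM in those of unchallenged lungs. Their part in these levels was not tested.

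**Figure D5:**
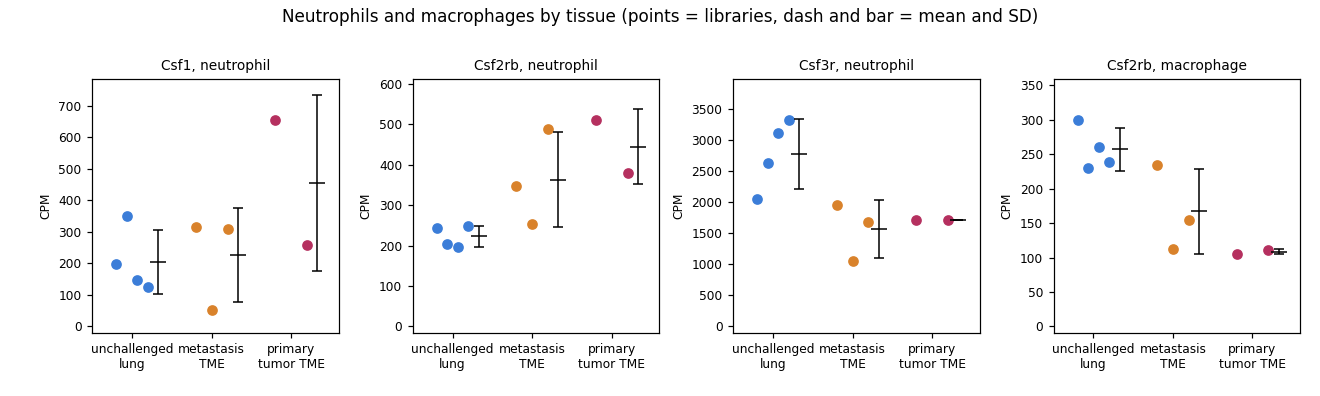
Levels of Csf1, Csf2rb and Csf3r in neutrophils and of Csf2rb in macrophages, in CPM of summed UMIs, with 1 point per library by tissue and the mean and SD beside each group. Csf2rb in neutrophils was 254 to 509 CPM in the 5 tumor libraries and 196 to 248 CPM in unchallenged lungs, and in macrophages it was 106 and 111 CPM in primary tumors and 231 to 299 CPM in unchallenged lungs.

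In classical monocytes 0 of 5 members passed for primary tumor against unchallenged lung, with 2 at an unadjusted p below 0.05 and 0 by DESeq2, and 0.184% of all genes passed (0.171% higher and 0.0122% lower). Csf1 had 1.74 and 0 CPM in primary tumors and 4.44, 13.5, 18.0 and 21.6 CPM in unchallenged lungs (adjusted p = 0.186), and its direction turned with finer clusters. In natural killer (NK) cells 0 of 3 members passed for metastasis against unchallenged lung (0 unadjusted, 0 by DESeq2), where 0% of all genes did. In MM cells 0 of 4 passed for metastasis against primary tumor (0 unadjusted, 0 by DESeq2), where 0.00701% of all genes did. Csf1 was at 1.45 and 6.52 CPM in metastasis MM replicates 4 and 5 and at 6.33 and 9.13 CPM in primary tumor MM.

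A list of 32 further genes of these pathways was followed in the same fits. In endothelium, 20 of them were tested for primary tumor against unchallenged lung, and 6 were higher and 4 lower, where 11.6% of all genes were higher and 10.6% lower. Among the higher genes were Csf2rb2, the transcription factor Irf8 (log2 fold change 2.41), which also stood among the markers used to name cDC1, the kinase Jak2 (1.56), which sits on the beta chain, and the feedback inhibitors Socs3 (1.47) and Socs2 (1.18). The lower genes were Cish (-3.32), a feedback inhibitor of STAT5 signaling, Kitl (-1.85) and its receptor Kit (-1.54), and the kinase Lyn (-0.99). Over cell types, Kitl and Cish were highest in aerocyte capillary cells (means of 2235 and 119.5 CPM) and Kit in general capillary cells (736 CPM). The makeup of the endothelium differed between these tissues as given above, and its part in these calls was not tested. The median over the 20 genes was 0.09, and over all genes -0.02. For metastasis against primary tumor, 2 of the 20 were higher, Cish (3.18) and Kitl (1.01), and 5 were lower (4.25% and 3.22% of all genes), and for metastasis against unchallenged lung none passed. Leaving out each of the 12 libraries in turn, the call of Kit for primary tumor against unchallenged lung was lost in 6 cases. For metastasis against primary tumor the calls of Kitl, Socs2 and Socs3 were lost in 8, 6 and 2 cases.

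In macrophages, 26 of the 32 genes were tested for primary tumor against unchallenged lung and 4 passed, a share near the 16.3% of all genes. Socs3 was higher (2.64), and Pparg (-3.17), which alveolar macrophages need, Cish (-2.44) and Socs2 (-2.17) were lower. Of these calls that of Pparg held without each of the 9 libraries in turn, that of Cish was lost in 2 cases and those of Socs3 and Socs2 in 1 each. The share of alveolar macrophages differed between these tissues as given above. Within C1q macrophages, 0 of 4 negative regulators and 0 of 5 transcription factors tested passed. Of all 20 genes tested there 1 did, Kitl (-2.93), a share near the 5.28% of all genes (2.61% higher and 2.68% lower). Pparg was higher in metastasis than in primary tumor macrophages (2.09). It was the only 1 of 26 to pass, where 1.85% of all genes did (1.59% higher and 0.257% lower). Its call was lost in 3 of 9 cases. Within C1q macrophages 0 of 20 passed in that comparison, where 0.11% of all genes did. In fibroblasts 0 of 25 were higher and 3 lower in primary tumors, among them Flt3l (-5.59), the ligand of FLT3, where 12.7% of all genes passed. Flt3l was highest in adventitial and alveolar fibroblasts (means of 166 and 140 CPM). The makeup of the fibroblasts differed between these tissues as given above, and its part was not tested. In classical monocytes of primary tumors 2 of 25 were higher, among them Socs3 (2.14, lost without 5 of 7 libraries), where 0.171% of all genes were higher. In neutrophils of metastases against unchallenged lungs 1 of 16 passed, where 14.9% of all genes did (10.3% higher and 4.65% lower). This was Csf2rb2, which was higher in metastases (2.37 ± 0.70, edgeR adjusted p = 0.0367). It had 8.66, 13.4 and 76.3 CPM against 0, 12.3, 4.43 and 13.7 CPM, groups that overlapped. The highest value was that of metastasis TME replicate 6. Without it, or without unchallenged lung replicate 5 or 6, the gene lay under the filter and was not tested, and the call was lost with DESeq2 (adjusted p = 0.0793), with the replicate number as a block (adjusted p = 0.112) and at resolution 1.0 (adjusted p = 0.0585). The list gave no call in NK cells (23 tested) or MM cells (23 tested).

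Over the mean levels of 23 cell types, the genes most like each member were sought among 12335 genes. Values of neighbouring types share libraries and free RNA, so the correlations describe and do not test. Csf3r was most like Il1b (Pearson r = 0.97), Trem1 (0.96) and F630028O10Rik (0.96), and Csf1r most like Clec4a3 (0.97), Cd300c2 (0.96) and Cd68 (0.95). Csf2ra was most like I830077J02Rik (0.96), Spi1 (0.95) and Cd68 (0.95), and Csf2rb most like Pirb (0.94), Spi1 (0.94) and Alox5ap (0.94). The receptors were also like each other, with r = 0.92 for Csf2ra and Csf2rb, 0.90 for Csf1r and Csf2ra and 0.82 for Csf1r and Csf2rb, and Csf3r was less so, with 0.65 to Csf1r, 0.70 to Csf2ra and 0.75 to Csf2rb.

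The ligands had other companions. Il34 was most like Daam2 (0.95), Rgs4 (0.92) and Adra2a (0.92), all highest in pericytes, and Csf2 most like Acoxl (0.96), Prmt8 (0.94) and Mlc1 (0.94), all highest in AT-2 cells. Csf1 was most like Ifit1 (0.84), Rab6a (0.83) and Ifit3 (0.82), highest in neutrophils, and Csf3 most like Tacr1 (0.84), Inhbb (0.84) and Nts (0.82), highest in tip-like cells. Csf2 and Csf3 themselves peaked at means of only 4.39 and 7.75 CPM, while the genes compared had to reach 20 CPM in some type. The Csf3 peak came mostly from tip-like cells of primary tumor TME replicate 4, with 27 UMIs (43.1 CPM).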

How the data were processed

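Single-cell RNA-seq libraries (10x Genomics 3′ v3.1) were compared. Per the labels, Cell Ranger 6.1.1 and Seurat 3.2.2 are named in the submitters' processing notes, with the builds GRCm38 and mm10. The deposited counts are raw UMI counts per gene and cell from the authors, already filtered to their cells, and the normalized matrix was not used. The 8 members and all lists were chosen with earlier results of these data known. Of 110283 barcodes, 9924 belonged to repeated libraries, 1 of which could be tied to no sample, and were removed. Different libraries shared at most 1.47% of the barcodes of the smaller one. No doublet caller was run. The authors had removed cells at the extremes of detected genes, and clusters whose leading genes spoke against a name stayed unnamed. The deposited percent of mitochondrial UMIs per cell, computed by the authors, was not used.

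Cells were clustered on 1994 variable genes without the members (17 principal components, 20 neighbors, resolution 0.5) and named from marker lists. Raw counts were summed per library and type with at least 20 cells and tested by edgeR 4.0.16 (R 4.3.3, TMM, filterByExpr, no covariate), with DESeq2 1.42.0 as an alternative, and adjusted over all genes. Pairs of types were tested inside libraries by an exact sign-flip permutation test on log2 of CPM + 10 (scipy 1.17.1). Named genes were the members, a list of 32 pathway genes and, per member, the 3 genes with the highest correlation over types. Shares were taken after thinning to 1000 UMIs, with exact Clopper-Pearson 95% intervals and a floor of 3 counts. The tests were also tried on simulated data, and the outcome is not given here. Sums rest on 3′ counts, so levels were not compared between genes. Metastasis and primary tumor libraries of replicates 5 and 6 came from the same mice, those of replicates 1-3 shared 2 of 3 mice, and those of replicate 4 shared none. The deviations of same-numbered libraries from their tissue means (endothelium, metastasis and primary tumor) correlated at 0.15, 0.11 and 0.22 in replicates 1-3, 5 and 6 and at -0.06 in replicate 4. The main test had no block. The replicate number was an alternative block over all libraries and, added after seeing the data, over the 3 pairs that share mice.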

Additional observations from a re-analysis of the deposited data

Results flagged for a closer look

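Of 35 groups of 4 to 10 libraries examined for a library far from the others of its group, 6 held one, and chance flags about 1 in 20 groups. In unchallenged lung replicate 6, Csf3r was 232.3 CPM in alveolar macrophages (36.7 to 65.2 in the other 3 lungs) and 227.8 CPM in macrophages (37.4 to 44.9 in the others). In unchallenged lung replicate 4, Csf1r was 548.2 CPM in macrophages (190 to 220 in the others), a library whose macrophages were 62.1% C1q cells, and Csf2rb was 158.0 CPM in classical monocytes (138 to 141 in the others). In primary tumor endothelium, Csf1 was 52.1 CPM in replicates 1-3 (22.1 to 26.2 in the others) and Csf3 was 39.37 CPM in replicate 4 (0 to 2.1 in the others).

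Csf2rb took opposite directions in different cell types under the same contrast, and in each the ranges of both groups lay apart. In macrophages, classical monocytes and neutrophils the primary tumor side held only 2 libraries. The share of all genes whose ranges lay apart is not given. For metastasis against primary tumor the log2 fold change was 0.6446 in macrophages and -4.267 in endothelium. For primary tumor against unchallenged lung it was -1.22 in macrophages, 0.3691 in classical monocytes, 1.031 in neutrophils and 4.557 in endothelium. Only the endothelial values and that of macrophages for primary tumor against unchallenged lung passed. Alveolar macrophages were 57.7, 13 and 6.17% of the macrophages of metastasis TME replicates 1-3, 5 and 6. Within C1q macrophages Csf2rb overlapped between metastases (71.0 to 128 CPM) and primary tumors (106 and 111 CPM), and between primary tumors and unchallenged lungs. The differences between cell types were not tested.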

How the results depend on the processing

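Each comparison was repeated with other settings, and the 2 endothelial calls of Csf2rb held in each of them. They also held within run 3 (log2 fold change 3.75 against unchallenged lung, -3.69 for metastasis against primary tumor). With the replicate number as a block the macrophage comparison of primary tumor and unchallenged lung kept 0 of 1 members called, and the block moved no other count of members. Over the 3 pairs of metastasis and primary tumor that share mice, Csf2rb in endothelium gave -3.46 with the block and -3.78 without it, and 372 and 119 of 6446 genes passed. The number of members called, 2 in fibroblasts, was 0 in run 3 only and 0 to 2 when leaving out 1 library. In macrophages it was 0 (metastasis against unchallenged lung) and 1 without the filter on low counts, with 0 to 1 when leaving out 1 library (1 without metastasis TME replicates 1-3), and 1 (primary tumor against unchallenged lung) and 3 without the filter, with 0 to 2. Classical monocytes had 2 instead of 0 without the filter or at resolution 1.0. Neutrophils had 1 instead of 0 for metastasis against unchallenged lung with DESeq2, with its size factors, with at least 10 cells or with members kept in the clustering, and for primary tumor against unchallenged lung with these 4 settings, without the filter or at resolution 1.0, with 0 to 1 in both when leaving out 1 library. Endothelium had 2 instead of 1 (metastasis against primary tumor, no filter), 2 instead of 0 (metastasis against unchallenged lung, run 3) and 4 or 3 instead of 1 (primary tumor against unchallenged lung, no filter or run 3), with 1 to 2 when leaving out 1 library. In neutrophils Csf2rb passed for primary tumors without any 1 metastasis library (1.06 to 1.08) and for metastases without replicate 1-3 or 5 (0.99 and 0.98). Csf1 in classical monocytes turned to 1.68 at resolution 1.0. The causes were not tested.

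In run 3 alone the pairs gave 1.64 (Csf1r) and 4.97 (Csf3r), with too few libraries to pass, and at resolution 1.0 nonclassical over classical monocytes gave 0.76 and passed. Shares of cells moved with depth, unthinned and thinned to 2000 UMIs: 24.7 and 22.2% for Csf1 and 41.5 and 37.2% for Csf2rb in neutrophils, 95.5 and 95.2% for Csf3r (83.6% at resolution 1.0), 29.6 and 14.2% for Il34 in pericytes, 1.00 and 0.906% for Csf2 in AT-2 cells, 85.8 and 76.7% for Csf1r in nonclassical monocytes and 59.2 and 39.9% for Csf2ra in C1q macrophages. Of the fold changes of members under an alternative, 949 kept direction and side of the threshold, 28 newly passed it, 12 no longer did and 1 turned. Csf2 and Csf3 rest on 46 and 99 UMIs, of which 52 of Csf3 lay in primary tumor TME replicate 4. Comparisons with 2 libraries on a side are uncertain.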
